A study of Mus musculus with 9 samples.

Results

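In mouse primary Leydig cells exposed to triphenyl phosphate (TPhP) or diphenyl phosphate (DPhP), 1827 genes lay on the same side of the control with both compounds. They were chosen from the measured values. A gene belonged when it reached 1 FPKM, a measure of sequenced fragments relative to transcript length and library size, in at least 3 of the 9 libraries and when its 3 control values all lay below, or all above, every one of the 3 TPhP and 3 DPhP values. Of the 19058 genes in the table, 12369 reached that level, and 917 of them (7.41%) were higher and 910 (7.36%) were lower with both compounds, 14.8% in either direction. These shares are the background against which each count below is read. Both sets of differences were taken from the same 3 control libraries, so a control value that lies high or low moves both in 1 direction. The differences from control are therefore given as a description, without a test.

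The cells came from wild-type testis, and the 3 groups of 3 libraries were labelled control, TPhP and DPhP. Neither dose nor exposure time is given in the sources used here, so the compounds cannot be said to have been compared at matched doses. Whether libraries of 1 group were prepared from different animals or cultures is not stated either, and a p-value may thus reflect technical spread alone. The sum of all FPKM values was lowest with DPhP (398680 to 401930), against 419107 to 422363 with TPhP and 421963 to 428928 in control. Genes listed at 0 were most numerous with DPhP (2444 to 2546), against 1977 to 2066 with TPhP and 1743 to 2002 in control.

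Leydig cells lie between the seminiferous tubules and make testosterone from cholesterol, which they synthesise, take up from lipoproteins or release from stored esters. TPhP, a phosphate triester with 3 phenyl groups, is used as a flame retardant and plasticiser. DPhP, which carries 1 phenyl ester fewer and is acidic, is formed from it in the body. Synthesis of cholesterol and of fatty acids is switched on together by the sterol regulatory element-binding proteins, which act at promoters with the help of factors that bind CCAAT boxes.

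The 250 bases before the annotated start were read from RefSeq's GRCm38.p6 promoters for 9916 tested genes, among them 721 of the higher and 738 of the lower members. The last 150 bases before the start in that table are shown for 2 of the higher members, Acsl3 and Fasn, which are genes of fatty acid synthesis, and for Bhmt, an enzyme of methyl-group transfer whose common change was among the largest of the lower members. The window of Fasn lies within the span of the gene in RefSeq, which reaches farther upstream, and directly before the start of its GENCODE transcript. Each is written 5′ to 3′ on the strand of its gene, with CCAAT or its reverse complement ATTGG in capitals.
Acsl3 (chr1:78657675-78657824, plus strand): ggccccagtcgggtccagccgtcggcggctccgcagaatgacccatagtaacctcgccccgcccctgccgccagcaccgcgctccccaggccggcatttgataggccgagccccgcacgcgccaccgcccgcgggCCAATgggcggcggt
Fasn (chr11:120824548-120824697, minus strand): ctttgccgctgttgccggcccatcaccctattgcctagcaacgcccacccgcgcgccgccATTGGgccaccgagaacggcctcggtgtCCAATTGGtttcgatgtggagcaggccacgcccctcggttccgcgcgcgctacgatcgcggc
Bhmt (chr13:93637759-93637908, minus strand): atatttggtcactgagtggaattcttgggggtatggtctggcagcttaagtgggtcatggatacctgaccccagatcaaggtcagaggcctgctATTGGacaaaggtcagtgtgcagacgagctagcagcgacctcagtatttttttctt
The Fasn window held 3 matches, of which CCAAT and ATTGG overlap in 1 run, and the other windows held 1 each. CCAAT on either strand stood in 40.9% of all 9916 promoters of 250 bases, in 41.6% of those of the higher members and in 38.6% of those of the lower. The E-box CACGTG (9.95% of all, 11.7% of higher, 10.2% of lower) and the GC box GGGCGG (64%, 67.4% and 63.7%) were likewise near the share of all promoters in both sets. The TATA box TATAAA stood in 7.91% of all, 7.49% of the higher and 8.67% of the lower members' promoters. For TGACG of the cAMP response element the shares were 30.2%, 30.4% and 28.6%. For the AP-1 site TGANTCA they were 5.45%, 5.55% and 6.1%. The spaced motif ACANNNTGT is a loose form of the glucocorticoid receptor's element. It stood in 4.47% of all, 4.16% of the higher and 6.5% of the lower members' promoters. All motifs searched are given here, and no difference in share was tested. Such matches are letters in a window and not measured binding sites.

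Most members moved little with TPhP and farther with DPhP. On the log2(FPKM + 1) scale, on which the differences of low genes are understated, the median difference from control among the 917 higher genes was 0.10 with TPhP (range 0.02 to 0.64) and 0.28 with DPhP (0.03 to 3.13). Among the 910 lower genes the medians were -0.14 with TPhP (-2.66 to -0.02) and -0.42 with DPhP (-4.87 to -0.03). Over all tested genes the medians were 0.01 and -0.02. Changes of size in both were few: 39 higher and 158 lower genes differed by at least 0.25 with each compound, and 2 higher and 28 lower genes by at least 0.5. With DPhP alone, 47 higher and 142 lower members differed by at least 1, against 0 and 1 with TPhP. Over all 12369 tested genes, whatever the direction, 368 differed by at least 0.25 with each compound and 53 by at least 0.5. A difference of at least 1 was reached by 697 of all tested genes with DPhP and by 8 with TPhP. The difference was larger with DPhP in 822 of the 917 higher and 842 of the 910 lower genes, and over all tested genes, whatever the direction, in 10497 of 12369.

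**Figure D1:**
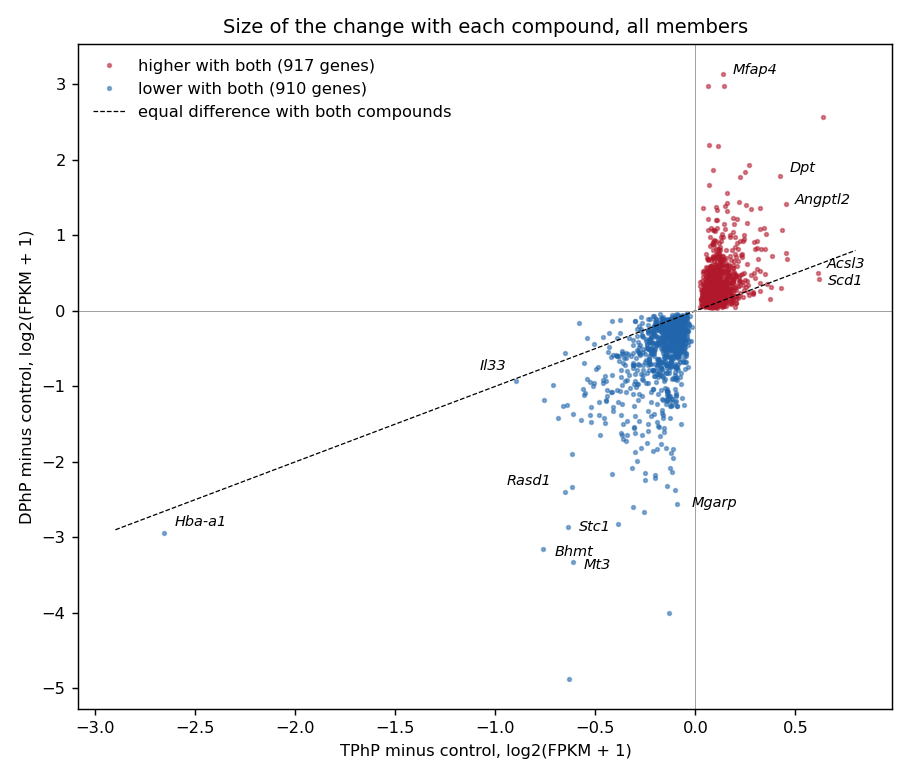
Difference from control with TPhP (horizontal) and with DPhP (vertical) for all 1827 members, each in log2(FPKM + 1), with 917 genes higher with both in red and 910 lower with both in blue. Most points lie farther from 0 on the DPhP axis than on the dashed line of equal differences, while Scd1, Acsl3 and Il33 lie near it.

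The edge of the rule ran through very small differences. Gdi2, which encodes a recycling factor of Rab GTPases, was just inside: its highest control value was 187.44 FPKM and its lowest exposed value 187.45. Ankfy1, an endosomal protein gene, was just outside, with 22.25 FPKM both in 1 control and in 1 TPhP library. On the lower side Ap1g2, a clathrin adaptor subunit gene, was just outside, with 5.53 FPKM both in 1 control and in 1 TPhP library.

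Of the 20 tested genes of fatty acid synthesis, 5 were higher with both compounds (25%, against 7.41% of all tested genes) and 0 were lower, and this count was 5 or 6 under each of the other scalings tried. This list, like the others below, was drawn up with earlier results of these data known. Acsl3, which activates long-chain fatty acids, stood at 8.41, 8.62 and 8.55 FPKM in control, 14.2, 14.2 and 12.3 with TPhP and 12, 12.5 and 13.0 with DPhP. All 6 exposed libraries were above the controls and the compounds overlapped, at 1.59-fold with TPhP and 1.46-fold with DPhP. Scd1, the desaturase that makes oleate from stearate, was at 65.9 to 66.4 FPKM in control, 98.9 to 104 with TPhP and 86.6 to 90.4 with DPhP. Its order was control, DPhP, TPhP, with no overlap between groups, at 1.54-fold and 1.34-fold.

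Acaca and Fasn encode the enzymes of the committed and the chain-building steps. Fasn was at 30.99, 31.5 and 32.3 FPKM in control, 40.1, 39.4 and 39.8 with TPhP and 40.8, 40.8 and 41.9 with DPhP, 1.26-fold and 1.30-fold. Acaca was at 11.7 to 12.3 FPKM in control, 15.6 to 16.0 with TPhP and 15.6 to 16.1 with DPhP, where the ranges of the compounds nearly coincided. Only 52.6% of the 75-base stretches of the Acaca transcript were unique to it among GENCODE transcripts, so its reads could be split with other annotated genes. Scd2, the related desaturase, was the last of the 5, at 229 to 237 FPKM in control, 304 to 319 with TPhP and 283 to 290 with DPhP, and is named to complete the list. The median of the whole list was 0.22 with TPhP and -0.15 with DPhP, so the list as a whole had no common direction.

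Of 25 tested genes of cholesterol synthesis and its regulation, 2 were higher with both compounds (8%) and 0 were lower. The median of that list was 0.47 with TPhP and -0.34 with DPhP, opposite in sign, which the rule does not admit.

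The lipoprotein receptor genes Lrp8 and Vldlr were higher with both compounds, and more so with DPhP. Lrp8 was at 1.14 to 1.34 FPKM in control, 1.75 to 1.88 with TPhP and 2.74 to 3.17 with DPhP. Vldlr was at 4.85 to 5.19, 5.59 to 6.18 and 8.79 to 9.56. For both genes the 3 groups were fully separate, in the order control, TPhP, DPhP. Of 20 tested genes of cholesterol transport and storage, 4 were higher and 2 lower (20% and 10%), with list medians of 0.04 and -0.20.

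Several of the remaining higher genes encode secreted or matrix proteins. Angptl2, a secreted angiopoietin-like protein gene, stood at 18.4, 18.5 and 18.1 FPKM in control, 25.7, 25.1 and 25.5 with TPhP and 50.7, 50.8 and 50.5 with DPhP. Dpt, which encodes dermatopontin, a small protein that binds collagen fibres, stood at 7.91 to 9.10, 11.1 to 12.2 and 30.2 to 32.8. In both the libraries of a group lay close together and the groups were far apart, at 1.39-fold and 2.76-fold for Angptl2 and 1.38-fold and 3.75-fold for Dpt. Nrep, a gene for a small neuronal regeneration protein, was 1.42-fold and 1.79-fold of control. Of 41 tested collagen and extracellular matrix genes, 5 were higher with both (12.2%) and 0 lower. Among them Col6a3, a chain of the microfibril-forming type VI collagen, was at 48.8 to 52.5 FPKM in control, 55.9 to 58.0 with TPhP and 135 to 142 with DPhP, and Col14a1 was at 4.75 to 5.28, 6.07 to 6.32 and 6.34 to 6.89. The median of the list was -0.02 with TPhP and 0.64 with DPhP.

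Genes of growth control, energy storage and amino acid supply were also among the higher members. Gadd45a, a stress-induced growth arrest gene, stood at 7.87, 9.07 and 6.90 FPKM in control, 9.86, 11.6 and 10.5 with TPhP and 14.1, 12.9 and 14.3 with DPhP. The spread among its controls was wide, and the highest of them came within 1 FPKM of the lowest TPhP value. G0s2, an inhibitor of triglyceride lipolysis, was 1.36-fold and 2.35-fold of control, and Ppp1r3c, which brings a phosphatase to glycogen, 1.46-fold and 2.36-fold. Mterf1a, a mitochondrial transcription termination factor gene, was at 1.52 to 1.90 FPKM in control, 2.48 to 2.55 with TPhP and 2.74 to 2.97 with DPhP, and 73.2% of its stretches were unique to it. Igf1, a growth factor with receptors on Leydig cells, was 1.07-fold with TPhP, at 42.3 to 43.1 against 39.6 to 39.9 FPKM, and 2.63-fold with DPhP, at 96.3 to 109.

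Of 24 tested ATF4 targets and serine synthesis genes, 4 were higher and 2 lower (16.7% and 8.33%), with medians of 0.01 and 0.44. Aldh1l2, a mitochondrial folate enzyme gene, was at 3.36 to 3.71 FPKM in control, 4.14 to 4.61 with TPhP and 15.5 to 16.6 with DPhP. Of 20 tested amino acid transporters, 5 were higher and 3 lower. Slc38a2, which carries small neutral amino acids, was 1.16-fold and 1.34-fold of control, whereas Slc7a8, an exchanger of neutral amino acids, was 0.745-fold and 0.464-fold. Of 20 aminoacyl-tRNA synthetase genes, 2 were higher and 1 lower. Of 34 cell cycle genes, 4 were higher, among them Ccnd2 (cyclin D2; 1.15-fold and 1.44-fold) and the proliferation marker Mki67 (1.06-fold and 1.66-fold). The 1 lower, Ccnd3, did not meet the rule under the 3 other scalings. Mki67 did not meet the rule once trends with GC content and length had been removed. Of 27 p53 targets and apoptosis genes, 5 were higher and 3 lower.

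**Figure D2:**
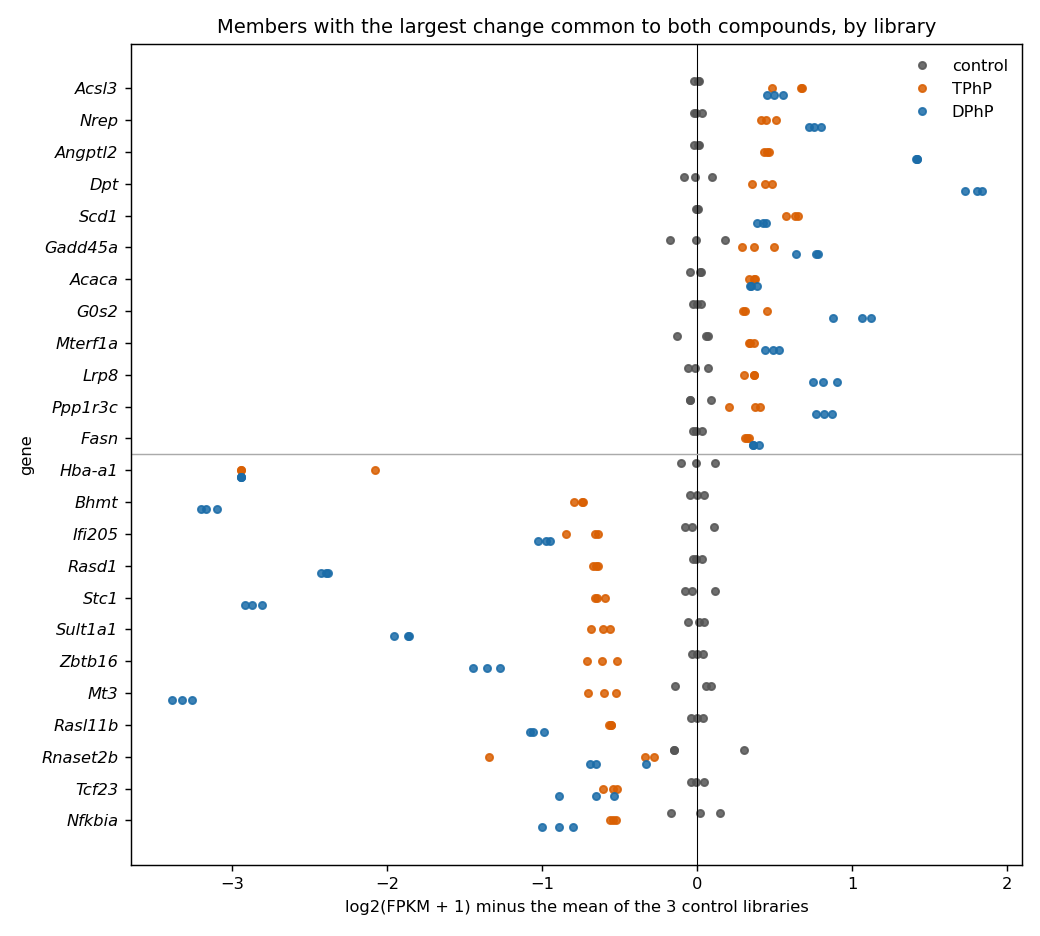
The 12 higher and 12 lower members, of those with a mean of at least 2 FPKM, with the largest change common to both compounds. Each point is 1 library, given as log2(FPKM + 1) minus the mean of the 3 controls, and every exposed library lies beyond the controls, as the rule requires. Rnaset2b and Hba-a1 show the widest spread within groups.

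The lower genes included larger changes, again mostly with DPhP. Bhmt, which remethylates homocysteine with betaine, stood at 10.9, 11.3 and 10.5 FPKM in control, 5.85, 6.13 and 6.10 with TPhP and 0.39, 0.29 and 0.32 with DPhP. TPhP left 0.553 of the control level and DPhP 0.0306, with every library of a group near the others. Sult1a1, a phenol sulfotransferase gene, stood at 13.9, 12.8 and 13.6, then 8.48, 7.95 and 8.76, then 2.95, 2.97 and 2.71. Mt3, a metallothionein that binds zinc and copper, stood at 18.2, 21.1 and 21.5, then 13.7, 13.0 and 12.02, then 1.12, 1.21 and 1.02. All 3 genes showed the order control, TPhP, DPhP with no overlap.

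Several of the lower genes named by the rule encode signalling proteins. Rasd1, a Ras-like G protein gene first found as induced by dexamethasone, stood at 50.3, 49.7 and 51.8 FPKM in control, 32.1, 31.8 and 31.4 with TPhP and 8.60, 8.89 and 8.80 with DPhP. Another Ras-like gene, Rasl11b, was 0.663-fold and 0.462-fold of control. Stc1, a secreted glycoprotein hormone gene of calcium and phosphate handling, stood at 85.4 to 98.2, 56.8 to 59.5 and 11.1 to 12.1. Smad6, an intracellular inhibitor of bone morphogenetic protein signalling, was 0.766-fold and 0.402-fold, and Adamts1, a secreted protease that cleaves proteoglycans, 0.690-fold and 0.378-fold. Tcf23, a gene for a basic helix-loop-helix factor, was 0.572-fold and 0.493-fold, with the compounds overlapping. Of 24 tested matrix proteases and inhibitors, 2 were lower and 1 higher. Of 34 tested Wnt, TGF-beta and IGF signalling genes, 6 were higher and 7 lower (17.6% and 20.6%). The higher included Wnt5a, a secreted ligand, at 1.22-fold and 1.35-fold, and Dkk3, a secreted protein of the Dickkopf family, at 1.21-fold and 2.14-fold.

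Genes known to be induced by glucocorticoids, a list drawn up with earlier results of these data known, had the most lower members of all lists. Of 17 tested, 9 were lower with both compounds (52.9%, against 7.36% of all tested genes) and 0 were higher, and rescaling to a common FPKM sum gave 7 lower and 2 higher. The list median was -0.16 with TPhP and -0.50 with DPhP. Zbtb16, a zinc finger repressor that is also a marker of spermatogonia, stood at 5.39, 5.23 and 5.55 FPKM in control, 3.18, 2.91 and 3.46 with TPhP and 1.49, 1.34 and 1.64 with DPhP. Pdk4, a kinase that holds back pyruvate oxidation, stood at 29.0 to 30.0, 22.1 to 23.2 and 7.81 to 9.33. Per1 was at 7.71 to 8.72, 6.85 to 7.06 and 6.47 to 7.10, and Dusp1, a phosphatase of MAP kinases, at 56.9 to 62.0, 50.5 to 56.5 and 30.9 to 32.6. Dusp1 and Per1 did not meet the rule once trends with GC content and length had been removed, nor did Dusp1 after rescaling to a common FPKM sum. The others on the list were Sult1a1 and Angptl4 and, named after their values were seen, Fkbp5, Tsc22d3 and Mt1. Fkbp5, a receptor co-chaperone, differed by -0.07 with TPhP and -0.82 with DPhP, Tsc22d3 by -0.22 and -0.42 and Mt1 by -0.11 and -1.83. Sult1a1, Pdk4, Angptl4 and Mt1 also answer to other regulators.

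Of 28 tested fatty acid oxidation genes and PPAR targets, 4 were lower and 0 higher (14.3%), 24 were neither, and the list median was -0.01 with TPhP and -0.28 with DPhP. Angptl4, a secreted inhibitor of lipoprotein lipase, was at 77.5 to 84.8 FPKM in control, 68.2 to 72.8 with TPhP and 24.2 to 25.4 with DPhP. Its 3 groups were separate, with the far larger step from TPhP to DPhP. Pdk4, described above, is also on this list.

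Inflammatory genes were represented by a list of NF-kB and inflammation genes. Of 21 tested, 6 were lower and 1 higher (28.6% and 4.76%), with medians of -0.21 and -0.25. Il33, an alarmin held in the nucleus, had the largest common difference of the list, although its mean is under the 2 FPKM required for naming, so it was chosen after its values were seen. It stood at 2.59, 2.42 and 2.48 FPKM in control, 0.87, 0.90 and 0.86 with TPhP and 0.74, 0.83 and 0.94 with DPhP, that is 0.351-fold and 0.335-fold, and the compounds overlapped. Nfkbia, the inhibitor that NF-kB itself induces, stood at 35.9, 39.3 and 31.3, then 24.3, 23.6 and 23.9, then 19.8, 17.2 and 18.6. Of 21 interferon-inducible genes, 1 was higher and 1 lower: Ifi203 was at 1.19 to 1.27 FPKM in control, 1.28 to 1.77 with TPhP and 5.04 to 6.35 with DPhP, and the related Ifi205 at 16.0 to 18.3, 8.95 to 10.5 and 7.79 to 8.27. The 2 related genes thus lay on opposite sides. Ifi203 did not meet the rule once trends with GC content and length had been removed.

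Antioxidant, clock and early response genes gave smaller counts. Of 30 tested Nrf2 and glutathione genes, 4 were lower and 0 higher (13.3%), but quantile normalization gave 2 of each. Gpx3, a secreted glutathione peroxidase, was at 300 to 316 FPKM in control, 264 to 272 with TPhP and 66.3 to 68.8 with DPhP. Of 17 clock genes, 3 were lower, the repressors Per1, Per2 and Cry2, at 0.846-fold, 0.858-fold and 0.915-fold with TPhP and 0.814-fold, 0.777-fold and 0.808-fold with DPhP. Of 26 immediate early genes, 3 were lower, with Dusp5, a phosphatase of ERK kinases, at 0.684-fold and 0.452-fold. Among 19 heat shock genes 2 were higher and 2 lower, and Hspa1b was 0.743-fold and 0.547-fold, with 44.2% of its stretches unique to it.

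**Figure D3:**
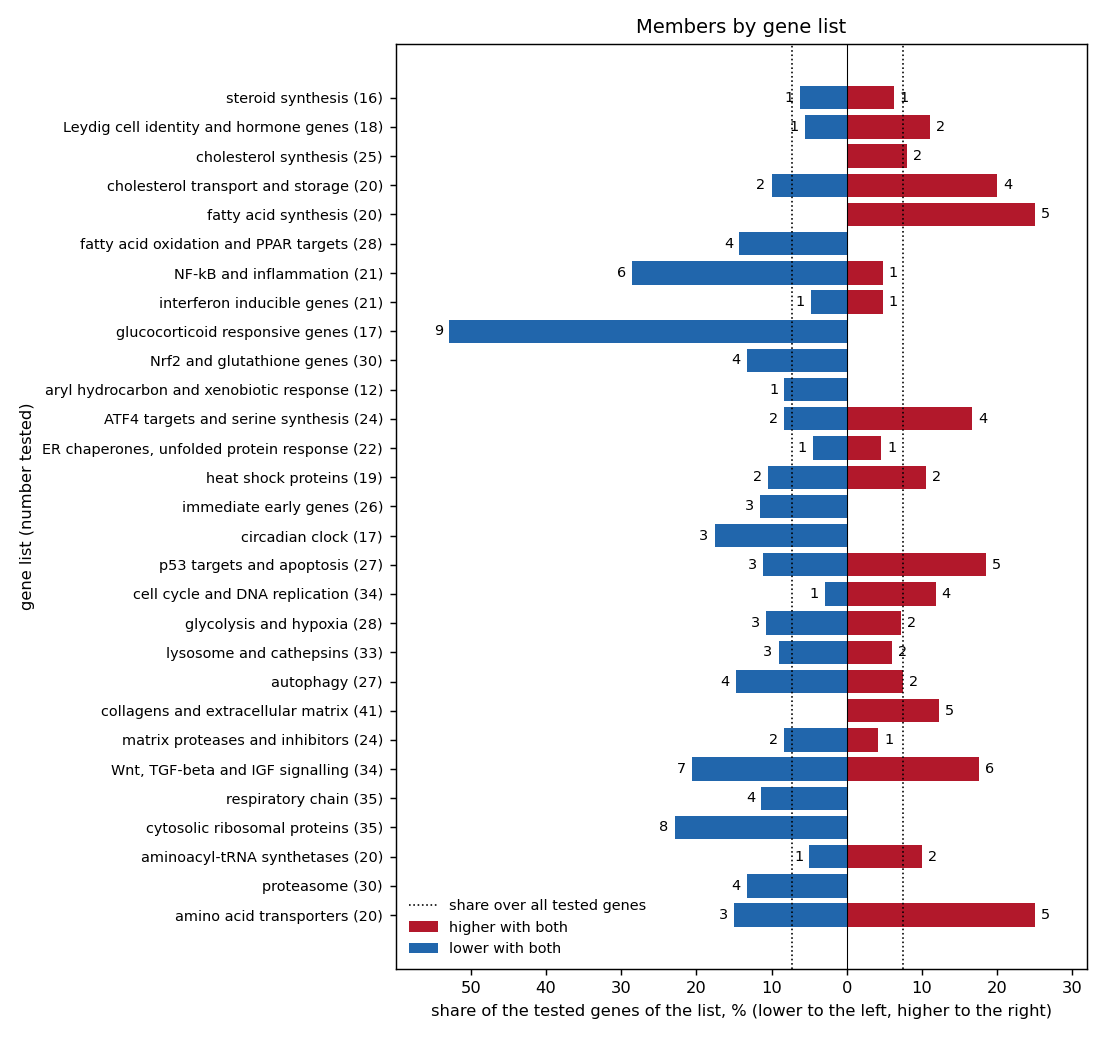
Share of the tested genes of each list that were lower (left, blue) or higher (right, red) with both compounds, in percent, with the count at each bar and the number tested in brackets. The dotted lines mark the shares over all tested genes, 7.36% lower and 7.41% higher; the glucocorticoid list reaches 52.9% on the lower side, and fatty acid synthesis and amino acid transporters 25% on the higher.

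Of 35 cytosolic ribosomal protein genes, 8 were lower and 0 higher (22.9%), but quantile normalization gave 3 lower and 2 higher, so no direction is given for the family. Rps23 was 0.897-fold and 0.848-fold of control, and Rpl24 0.911-fold and 0.797-fold, with 53.1% and 19.1% of their stretches unique. Of 35 respiratory chain genes 4 were lower (11.4%) and 0 higher, or 2 lower with the common sum or quantile normalization. The median of that list was 0.00 with TPhP and -0.26 with DPhP, and 27 of the 35 were called higher with TPhP than with DPhP in the limma model described below. Ndufb8, a subunit of complex I, was 0.965-fold and 0.583-fold of control, but did not meet the rule under those 2 settings. Of 30 proteasome genes 4 were lower (13.3%) and 0 higher, and rescaling to a common FPKM sum gave 3 higher and 3 lower. Of 33 lysosomal genes 3 were lower and 2 higher, but 1 lower and 4 higher with the common sum or quantile normalization. Of 27 autophagy genes 4 were lower and 2 higher, among the lower Map1lc3a, which encodes an autophagosome membrane protein, at 0.930-fold and 0.590-fold. Of 22 chaperone genes of the endoplasmic reticulum 1 was lower and 1 higher. In the glycolysis and hypoxia list, 3 of 28 were lower and 2 higher; its largest common difference was in Adm, the vasodilator adrenomedullin, at 0.808-fold and 0.376-fold. In the list of 12 aryl hydrocarbon and xenobiotic response genes, Tiparp alone was a member, at 0.940-fold and 0.892-fold, and it did not meet the rule after rescaling to a common FPKM sum.

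Of 16 tested steroid synthesis genes, 1 was lower and 1 higher (6.25% each, near the shares of all tested genes). Fdx1, the ferredoxin that passes electrons to the side-chain cleavage enzyme, was at 134 to 144 FPKM in control, 118 to 127 with TPhP and 46.9 to 53.3 with DPhP. Acbd3, a Golgi protein that takes part in moving cholesterol to mitochondria, was 1.07-fold and 1.18-fold of control. Among 18 Leydig cell identity and hormone genes, Igf1 and the growth hormone receptor gene Ghr were higher and Gata4, a transcription factor of somatic gonadal cells, was lower, at 0.928-fold and 0.642-fold. Acbd3 and Ghr did not meet the rule once trends with GC content and length had been removed. Cyp17a1, needed for androgen synthesis, was at 0.25 FPKM or less in every library and Hsd17b3, which makes testosterone in adult Leydig cells, at 0.08 or less, so neither was tested. Both genes were chosen for mention after their values were seen.

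The markers of the labelled cell type were present except Cyp17a1, which was under 1 FPKM in all libraries. Their sum was lower with DPhP. The 10 Leydig cell markers summed to 1879 to 1997 FPKM in control, 1956 to 2026 with TPhP and 388 to 402 with DPhP. Of the 9 tested, 1, Fdx1, was lower with both compounds. In bulk samples fewer cells of a type and less RNA per cell cannot be told apart. The 12 peritubular myoid markers summed to 1354 to 1495, 1391 to 1423 and 2719 to 2782, with 1 higher (Mylk) and 1 lower (Tpm2), and the 15 fibroblast and stem Leydig cell markers to 1778 to 1803, 1644 to 1651 and 2695 to 2742, with 1 higher and 2 lower. The 16 macrophage markers summed to 1581 to 1604, 1524 to 1529 and 1892 to 2007, with 1 of 15 tested higher and 2 lower: Mrc1, the mannose receptor, 1.05-fold and 1.49-fold, Csf1r, the macrophage colony-stimulating factor receptor, 0.857-fold and 0.735-fold, and Tyrobp, an adaptor, 0.954-fold and 0.444-fold. Tpm2, Mrc1 and Tyrobp did not meet the rule with quantile normalization or once trends with GC content and length had been removed. Mrc1 also did not meet it with median-of-ratios size factors, nor Tyrobp with the common FPKM sum. The 15 Sertoli cell markers summed to 1225 to 1250, 1212 to 1249 and 1262 to 1337, with 1 of 11 tested higher and 1 lower. Amh, Fshr and Rhox5 were under 1 FPKM in all libraries, and Clu alone was at 230 to 233 FPKM in control. The 10 endothelial markers summed to 28.9 to 29.7, 30.0 to 30.6 and 53.5 to 55.7, with 0 of 3 tested in the set, and Pecam1, Tek and Vwf were under 1 FPKM in all libraries.

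Germ and blood cell markers were low in level. The 21 germ cell markers summed to 47.9 to 77.1 FPKM in control, 45.3 to 50.4 with TPhP and 13.9 to 14.1 with DPhP, so control and TPhP overlapped. Of the 13 tested, 4 were lower and 0 higher, among them Zbtb16 and Kit, the stem cell factor receptor, at 0.919-fold and 0.198-fold. Zbtb16 is also on the glucocorticoid list, and 7 of the 21 germ cell markers were under 1 FPKM in all libraries. The 12 blood cell markers summed to 23.3 to 37.8, 23.1 to 24.0 and 2.09 to 2.29, with 1 of 6 tested lower. Hba-a1, an alpha globin gene, stood at 6.15, 7.34 and 6.64 FPKM in control, at 0.82, 0 and 0 with TPhP and at 0 in all 3 DPhP libraries. It had the largest common difference of all members, but only 37.8% of its stretches are unique to it, since a near-identical alpha globin copy lies beside it, and a value listed at 0 may be a failed estimate. Rnaset2b, with a unique share of 23.3% and TPhP values of 7.66, 16.4 and 17.1, is uncertain for the same reason. The part of other cell types in the common genes was not tested.

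The only comparison that the choice of members left free was that between the compounds, and 1 pair of compounds was compared. In a limma model over all 12369 genes, with p-values adjusted by the Benjamini-Hochberg method, 68.7% of all genes differed between DPhP and TPhP at an adjusted p under 0.05 (30.9% higher with DPhP, 37.8% higher with TPhP). Among the 917 higher members, DPhP was farther from control in 619 (67.5%) and TPhP in 14 (1.53%), and 284 (31%) did not pass. Among the 910 lower members, DPhP was farther in 676 (74.3%), TPhP in 13 (1.43%), and 221 (24.3%) did not pass. The share that differed between the compounds was thus near that of all genes, while within it nearly all members had DPhP as the farther compound. That order was not particular to the members. Over all tested genes the difference from control was larger with DPhP in 10497 of 12369, whatever its direction and without a test.

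Among members with a mean of at least 2 FPKM and no Gm number, Rik or LOC name, 5 had the largest of these differences. TPhP moved 4 of the 5 by at most 0.14 and lowered the other, Mt3, by more. Mfap4, a microfibril-associated protein gene, stood at 6.69, 5.70 and 6.16 FPKM in control, 7.09, 6.70 and 6.91 with TPhP and 60.9, 65.0 and 60.1 with DPhP, a direct difference of 2.99 (95% interval 2.88 to 3.11, adjusted p 1.34e-12). Sfrp1, a secreted antagonist of Wnt proteins, differed by 2.91 (2.84 to 2.99, adjusted p 1.00e-13), at 13.4 to 13.5 FPKM in control, 13.6 to 14.4 with TPhP and 108 to 117 with DPhP. Emb, which encodes the adhesion protein embigin, differed by 2.84 (2.71 to 2.96). On the lower side Mt3 differed by -2.71 (-2.86 to -2.57) and Mgarp, a mitochondrial protein gene of steroid-producing tissues, by -2.46 (-2.53 to -2.39). Mgarp was at 251 to 264 FPKM in control, 236 to 246 with TPhP and 41.3 to 44.6 with DPhP. In each of these 5 genes every DPhP library was far outside the range of the other 6.

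TPhP was the farther compound in few genes and by small amounts. Scd1 differed by -0.20 (-0.26 to -0.14, adjusted p 5.69e-05), being higher with TPhP in all 3 libraries. Gadd45b, a stress-induced relative of Gadd45a, stood at 17.2, 19.1 and 18.7 FPKM in control, 11.7, 14.3 and 14.7 with TPhP and 16.4, 17.0 and 16.3 with DPhP, a difference of 0.28 (0.12 to 0.43, adjusted p 0.00409). Gadd45b did not meet the rule under the 3 other scalings, and its DPhP difference from control turned from -0.14 to 0.15 without the trends with GC content and length. Rcan1, an inhibitor of calcineurin, was 0.676-fold with TPhP and 0.769-fold with DPhP (0.18, 0.06 to 0.30, adjusted p 0.0117). Nectin2, an adhesion protein gene, differed by 0.19 (0.11 to 0.27), but its DPhP difference from control turned to 0.12 without those trends. Nectin2 also did not meet the rule with the common FPKM sum or with quantile normalization. Rgcc, a cell cycle regulator, differed by -0.21 (-0.31 to -0.11, adjusted p 0.00128), and this reversed to 0.07 without the trends.

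For 443 of the 917 higher and 283 of the 910 lower members the 95% interval of the direct difference lay wholly within -0.25 to 0.25, so that larger differences between the compounds are outside it. Over all tested genes this held for 4190 of 12369. Of the members with such an interval, 269 higher and 189 lower did not pass the direct comparison, and the rest did pass. Only 39 higher and 158 lower members differed from control by at least 0.25 with each compound. Where the changes are smaller than that bound, such an interval says little on likeness. Acsl3 and Acaca were among the members with such an interval and the largest common change. The difference was -0.11 for Acsl3 (-0.23 to 0.00, adjusted p 0.0803), -0.00 for Acaca (-0.08 to 0.07, adjusted p 0.939) and 0.05 for Fasn (-0.01 to 0.11, adjusted p 0.135). These p-values do not show that the compounds acted alike, and the intervals give the size of a difference that the spread between libraries still allows. Without TPhP replicate 3 the Acsl3 difference was -0.17 and passed, and Fasn passed under each of the 3 other scalings, at 0.08 to 0.12. Without the trends with GC content and length described below, Acsl3 (-0.18), Fasn (0.14), Porcn (0.19) and Cenpm (0.28) passed. Of the lower genes, Porcn, the acyltransferase that lipidates Wnt proteins, stood at 8.15 to 8.44 FPKM in control, 5.01 to 5.8 with TPhP and 5.43 to 6.47 with DPhP (0.07, -0.07 to 0.22). Lclat1, an acyltransferase that remodels cardiolipin, was at 40.4 to 42.0, 30.5 to 31.5 and 26.7 to 27.6, and its small difference of -0.18 (-0.24 to -0.11) passed. Cenpm, a centromere protein gene, differed by 0.04 (-0.14 to 0.22), and did not meet the rule without the trends with GC content and length. For Il33 the difference was -0.03 (-0.18 to 0.11), but all its exposed values lie under 1 FPKM, where the pseudocount of 1 compresses differences, and it reached the minimum level only through the controls.

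**Figure D4:**
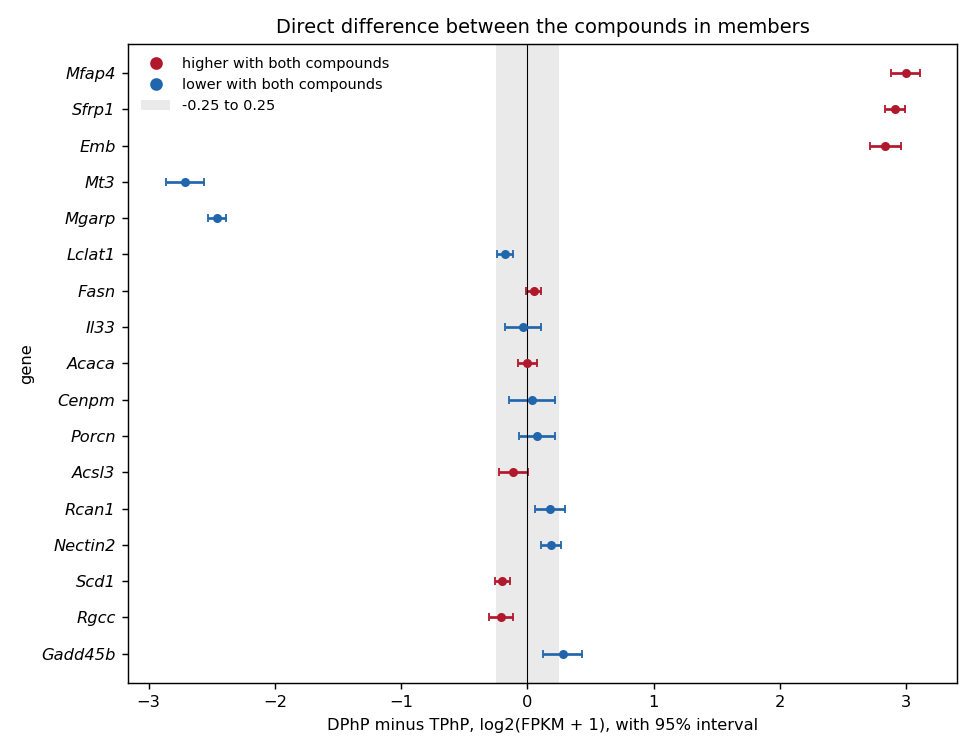
Direct difference between the compounds, DPhP minus TPhP in log2(FPKM + 1), for members chosen for a large or a narrowly bounded difference, with points for the estimate and bars for the 95% interval from limma (3 libraries per group); red genes were higher and blue genes lower with both compounds. Mfap4 lies at 2.99 and Mt3 at -2.71, while the intervals of Acaca and Fasn lie inside the grey band from -0.25 to 0.25.

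The higher and lower members differed in a property that the rule did not use. The longest GENCODE transcript had a median length of 4792 bases in the higher and 2910 in the lower members, against 3407 in all tested genes, and its median GC content was 44.9%, 53.2% and 49.7%. When the tested genes were ordered by transcript length and cut into 5 groups of about equal size, the share of higher members went from 1.84% in the shortest to 15.3% in the longest, and that of lower members from 9.71% to 4.15%. By GC content the share of higher members went from 14.8% in the lowest group to 1.77% in the highest, and that of lower members from 3% to 13.8%. Over all tested genes the median difference went the same way, from -0.02 to 0.03 with TPhP and from -0.18 to 0.08 with DPhP between the shortest and the longest group. After these trends had been removed library by library, 625 genes were higher and 776 lower, of which 431 and 588 were among the original members and 1 lay on the opposite side. Acsl3, Scd1, Fasn, Bhmt, Sult1a1, Mt3 and Rasd1 still met the rule. The part of these trends in the common genes was not tested further.

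**Figure D5:**
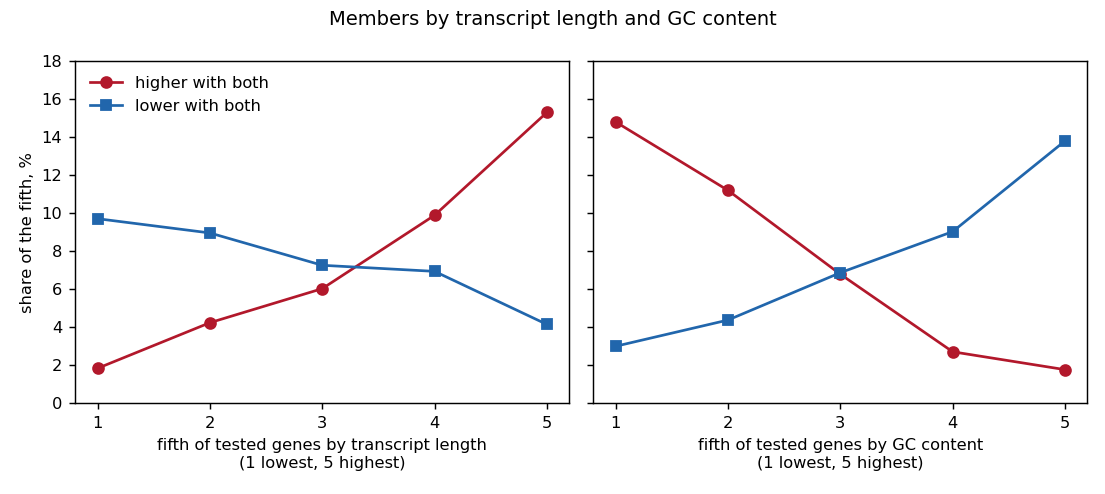
Share of members, in percent, in each of 5 groups of the tested genes ordered by transcript length (left) and by GC content of the transcript (right), with circles for genes higher and squares for genes lower with both compounds. The share of higher members is largest in long transcripts (15.3%) and in those of low GC content (14.8%), and that of lower members in those of high GC content (13.8%).

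The split between higher and lower also depended on how the libraries were scaled. With the deposited values 50.2% of the members were higher. When each library was rescaled to the same FPKM sum, which raises the DPhP values, 1370 genes were higher and 656 lower, so that 67.6% were higher. Of the original members, 915 higher and 656 lower ones were retained. Of the 115 named members, 103 still met the rule with that scaling, 110 with median-of-ratios size factors, 101 with quantile normalization and 89 without the trends with GC content and length.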

How the data were processed

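RNA sequencing of 9 libraries was analysed. The authors deposited FPKM values for 19058 genes, per the file headers, and the build was GRCm38.p6, per the submitters' processing notes. The aligner, counter, strandedness and read depth were not stated in the labels, so no counting interval was derived, and overlapping or antisense genes could share reads. FPKM values are not counts, so count models were not used. Sample names identified every column.

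Values were analysed as log2(FPKM + 1). Differences from control are differences of group means with no test, since the members were chosen on them. DPhP was compared with TPhP in limma 3.58.1 under R 4.3.3, with 1 mean per group, an intensity trend and 6 residual degrees of freedom, two-sided, adjusted by the Benjamini-Hochberg method over 12369 genes, with a threshold of 0.05. The fit was tested on simulated data.

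The members and the 37 gene lists were chosen with earlier results of these data known. The lists held 840 genes, of which 4 were not analysed here. Results of some single genes are left out of the text. Genes were named by a rule, among members with a mean of at least 2 FPKM and a symbol that is no Gm number, Rik or LOC name: the 12 higher and 12 lower with the largest smaller difference from control; up to 3 per list; the 5 with the largest direct difference in each order of the compounds; the 5 with the largest common change and a direct interval within 0.25; and the genes at the edge of the rule. Transcript length, GC content and unique stretches of 75 bases came from GENCODE M21, which covered 98.5% of the tested genes, and exon overlap was found with bedtools 2.31.1. Python 3.11.15 was used for these steps.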

Additional observations from a re-analysis of the deposited data

How the results depend on the processing

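Alternatives were 3 other scalings, 2 other filters, pseudocounts of 0.1 and 0.5, a fit to the 6 exposed libraries, a replicate block, a variance without an intensity trend and leaving out each library. Removing trends with GC content and length was added after seeing the data. The counts of members and of genes with DPhP farther were within 1.5 times of those reported, except that 956 higher members had DPhP farther after rescaling to a common FPKM sum. The small counts with TPhP farther moved most. Among higher members the 14 became 8 with the common sum, 6 with size factors and 8 without the intensity trend; among lower members the 13 became 6 with the common sum and 8 with quantile normalization. Leaving out 1 library gave 937 to 1338 higher and 933 to 1340 lower members, since the rule is easier to meet with 8 libraries. DPhP was then farther in 552 to 848 higher and 643 to 955 lower members, TPhP in 6 to 16 and 10 to 18, and 7830 to 8459 genes were called in all. With the common sum the DPhP difference from control of Farsa reversed to 0.0041 and the direct difference of Lamp2 to 0.0591, and with quantile normalization Lamp2 to 0.0866. Without the GC and length trends the DPhP difference from control reversed for Sdf2l1 (0.0874), Gadd45b (0.148), Ccnd3 (0.0083), Lamp2 (-0.0602) and Nectin2 (0.115), and the direct difference for Cebpb (0.0559), Gpx1 (0.0076), Sdf2l1 (0.161), Ndufs3 (0.0401), Rps23 (0.0662), Rpl24 (0.0909), Psmc4 (0.0092) and Rgcc (0.0672). The cause was not tested. Deviations from group means of same-numbered libraries correlated at -0.12 to 0.10 and of other pairs at -0.13 to 0.09, so the numbers were not taken to pair the libraries. With the replicate block DPhP was farther in 596 higher and 667 lower members, TPhP in 11 and 11, and 8458 genes were called. Read depth is unknown and its limits could not be set.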

Other observations

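Other lower members that the naming rule did not take were chosen after their values were seen. Aldh1a1, the retinaldehyde dehydrogenase that makes retinoic acid, was among the most abundant members, at 2864, 2926 and 2874 FPKM in control, 2642, 2716 and 2715 with TPhP and 551, 552 and 564 with DPhP. Its neighbours Aldh1a7 and Anxa1 on chromosome 19 were also lower with both compounds, with Aldh1a7 at 9.56 to 10.7, 7.56 to 8.16 and 2.56 to 2.95 FPKM. Aldh1a1 and Aldh1a7 are related in sequence, and 97.8% and 97.5% of their stretches were unique. Tmem176b and Tmem176a, neighbouring membrane protein genes on chromosome 6, stood with Gimap5 and Gimap3 in a run of 4 adjacent tested genes that were all lower. Tmem176b was at 320 to 343 FPKM in control, 260 to 277 with TPhP and 117 to 121 with DPhP. In all, 15 runs of at least 3 adjacent tested genes were lower and 12 were higher, with no test of their number. Cemip, which takes part in breaking down hyaluronan, was at 196 to 219, 168 to 176 and 40.7 to 44.2 FPKM. Fabp7, a fatty acid binding protein gene, was at 54.8 to 62.5, 44.2 to 49.5 and 7.78 to 9.71.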
